A study of Mus musculus with 12 samples.

Results

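Expression of 10 genes of the TGF-beta family pathway was followed across 4 groups of mouse CD8+ T cells. The set held the ligand gene Tgfb1, the receptor genes Tgfbr1, Tgfbr2, Tgfbr3, Acvrl1, Acvr1 and Acvr2a, and Smad3, Smad7 and Skil, which act inside the cell. The genes were taken by symbol from the deposited count tables, which held 13625 symbols in common, and all 10 were listed in both. Acvrl1 was selected on its count difference between ATRA and CTRL cells after co-culture, so that value, and every contrast of Acvrl1 that uses the co-culture counts, is given below as a description without a test. The other 9 were chosen as relatives of it with results of these libraries known, and counts over the set only describe it. The restimulation contrasts and the difference of the ATRA effects use those counts as well.

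The cells were OT-I CD8+ T cells, isolated from mouse spleen, which carry a transgenic receptor specific for an ovalbumin peptide. In the ATRA groups, 5 ng/mL all-trans retinoic acid, a vitamin A metabolite that acts through nuclear retinoic acid receptors, was present while the cells were activated with antibodies to CD3e and CD28 plus IL-2; in the CTRL groups the same volume of its solvent DMSO was present. All cells were then kept for 5 days and co-cultured for 72 h at 1% oxygen with GL261, a mouse glioma line made to express ovalbumin, with no additive. Live CD45.2+ cells were sorted either after a further 24 h with anti-CD3e (restimulated ATRA and restimulated CTRL cells, exhaustion_stim in the labels) or directly after the co-culture (co-cultured ATRA and co-cultured CTRL cells, exhaustion in the labels). Each of the 4 groups had 3 libraries. All groups thus went through the same co-culture, none held untreated T cells, and the animal age was not given in the labels. The labels do not say whether replicate libraries stem from different animals or cultures, and p-values therefore measure the spread between these libraries, which may be technical. Libraries of ATRA and CTRL cells with the same number within a state shared a batch.

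The TGF-beta family signals through pairs of receptor kinases. A ligand brings together a type II and a type I receptor, and the type I receptor phosphorylates SMAD proteins that enter the nucleus with SMAD4: SMAD2 and SMAD3 for TGF-beta and activin, SMAD1, SMAD5 and SMAD9 for bone morphogenetic proteins (BMPs). Acvrl1 encodes ALK1, a type I receptor best known from endothelial cells, where BMP9 and BMP10 use it. In CD8+ T cells TGF-beta is known to restrain effector functions and to favour tissue residency, and with retinoic acid it is known to shape gut-homing T cells.

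Libraries held 16286775 to 20114121 counts after restimulation and 23558244 to 26111497 counts after co-culture, so 3 counts correspond to 0.149 to 0.184 and to 0.115 to 0.127 CPM, the count scaled to a common library size. After co-culture, ATRA replicate 3 and CTRL replicate 1 stood apart from the other libraries of their groups, with correlations of log CPM of 0.947 and 0.961 for the ATRA library and 0.977 and 0.979 for the CTRL library. T cell identity genes (Cd3d, Cd3e, Cd3g, Cd8a, Cd8b1, Trac, Ptprc and Cd2) summed to 2524 to 2568 CPM in restimulated ATRA libraries and 1942 to 2275 CPM in restimulated CTRL libraries, and to 2335 to 2895 CPM in co-cultured ATRA libraries and 2101 to 2913 CPM in co-cultured CTRL libraries. Trac is not listed in the co-culture table. In bulk RNA, fewer cells that express a gene and less RNA per cell cannot be told apart.

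Acvrl1 was close to absent from CTRL cells and clearly present in ATRA cells in both states. After restimulation it had 70.4, 64.4 and 70.8 CPM in ATRA libraries, against 0.281, 0.428 and 1.29 CPM in CTRL libraries. Those values rest on 1257, 1231 and 1410 counts in ATRA libraries and on 5, 7 and 24 counts in CTRL libraries. The lowest ATRA library thus lay far above the highest CTRL library, and among CTRL libraries replicate 3 was the highest. The fitted log2 fold change was 6.64 (SE 0.31, higher in 3 of 3 libraries). The ratio of summed counts was 100.5, with a 95% exact interval of 72.4 to 144 that covers counting error only. Of the CTRL libraries, only replicate 3 reached the level of the filter on low counts. Acvrl1 thus passed that filter through its ATRA libraries, and its value is given as a description without a p. Without CTRL replicate 3 the log2 fold change was 7.57, and over all 10 alternatives it lay between 6.27 and 7.57.

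After co-culture, the contrast that led to its choice, Acvrl1 had 18.6, 19.4 and 21.6 CPM in ATRA libraries, against 0.0391, 0.224 and 0.0735 CPM in CTRL libraries. The CTRL libraries held 1, 6 and 2 counts of it, so their level lay near the 3-count floor, while the ATRA libraries held 478, 461 and 501 counts. The fitted log2 fold change was 7.40 (SE 0.41) and the ratio of summed counts was 175, with a counting interval of 92.1 to 384. Without CTRL replicate 2, which held most of the CTRL counts, the fitted value was 8.32.

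Acvrl1 is known for endothelial cells, and the levels of endothelial genes were therefore set beside it. In all 12 libraries Cdh5, Tie1, Emcn, Cldn5, Vwf and Sox17 were at 0 or not listed. Kdr had 9, 5 and 2 counts in co-cultured ATRA libraries and 0, 4 and 0 counts in co-cultured CTRL libraries. Tek had 0, 2 and 1 counts in restimulated ATRA libraries. Egfl7 averaged 2.87 CPM in restimulated ATRA, 5.11 CPM in restimulated CTRL, 5.76 CPM in co-cultured ATRA and 4.74 CPM in co-cultured CTRL cells. The list of 11 endothelial genes summed to 21.5 to 22.8 CPM in restimulated ATRA libraries and 6.34 to 10.8 CPM in restimulated CTRL libraries, and to 14.5 to 23.6 CPM in co-cultured ATRA libraries and 7.67 to 9.18 CPM in co-cultured CTRL libraries. Flt1, a receptor for vascular growth factors, gave 14.3 ± 0.445 CPM of the sum in restimulated ATRA cells and 0.117 ± 0.102 CPM in restimulated CTRL cells (SD, n = 3). Eng, the endoglin co-receptor, is a member of that list and of the receptor list below. The part of these genes in the Acvrl1 difference was not tested.

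**Figure D1:**
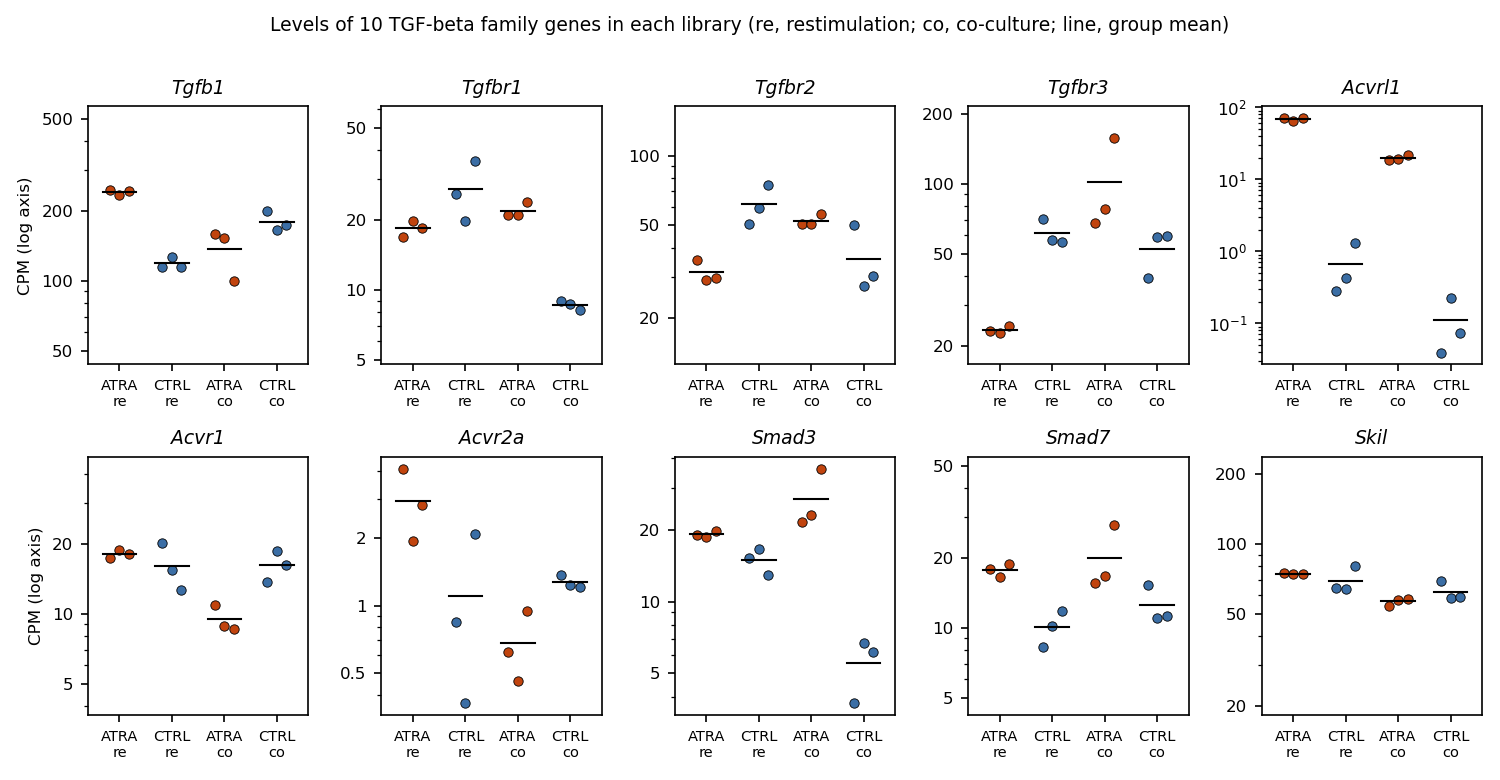
CPM on a log axis for each of the 10 genes in each library (points) with the group mean (line); re marks restimulated and co marks co-cultured libraries. Acvrl1 lies at 64.4 to 70.8 CPM in restimulated ATRA libraries and at no more than 1.29 CPM in any CTRL library, while Skil stays between 54.2 and 80.1 CPM in all 12.

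Across all members, ATRA and CTRL cells differed in 8 of the 10 genes after restimulation, 5 higher and 3 lower in ATRA cells. Of all 12783 genes tested there, 62.6% were called at an adjusted p under 0.05, so this share lay near that of the genes at large. Among all genes 31.8% were called higher and 30.8% lower. The 5 higher members include Acvrl1, whose part in the count is a description. For 6 of the 10 all ATRA libraries lay on 1 side of all CTRL libraries, 4 of them higher and 2 lower, against 68.8% of all genes without overlap (35.4% higher, 33.4% lower). After co-culture 3 of the other 9 members were called, 2 higher and 1 lower, against 33.6% of 12111 genes (18.1% higher, 15.5% lower). ATRA and CTRL libraries were fully separated for all 9, 5 higher and 4 lower, against 57% of all genes (28.4% higher, 28.7% lower). The median log2 fold change was 0.26 over the 10 members after restimulation and 0.54 over the other 9 after co-culture, beside 0.02 and 0.01 over all genes tested. All 10 passed the filter on low counts in every fit. Without co-cultured ATRA replicate 3 and CTRL replicate 1, 7 of the other 9 were called after co-culture, 5 higher and 2 lower. In that setting 7980 of all genes were called in place of 4071. With 1 library left out the range was 2 to 4 members, and 1613 to 5617 of all genes. After restimulation 5 members were called without ATRA replicate 1 and 5 without ATRA replicate 3. In those settings 7283 and 7247 of all genes were called, in place of 7998.

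The ATRA effect itself differed between the states in 7 of the other 9 members, with 4 lower and 3 higher after restimulation, against 49.2% of 12364 genes (25.5% lower, 23.6% higher). Tgfbr1, Tgfbr2, Tgfbr3 and Smad3 had the lower effect after restimulation and Tgfb1, Acvr1 and Acvr2a the higher one. For Acvrl1 the difference was -0.75 with an interval of -2.06 to 0.57, and no p is given because its co-culture part is the value that chose the gene. Without restimulated CTRL replicate 3 it was 0.19.

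**Figure D2:**
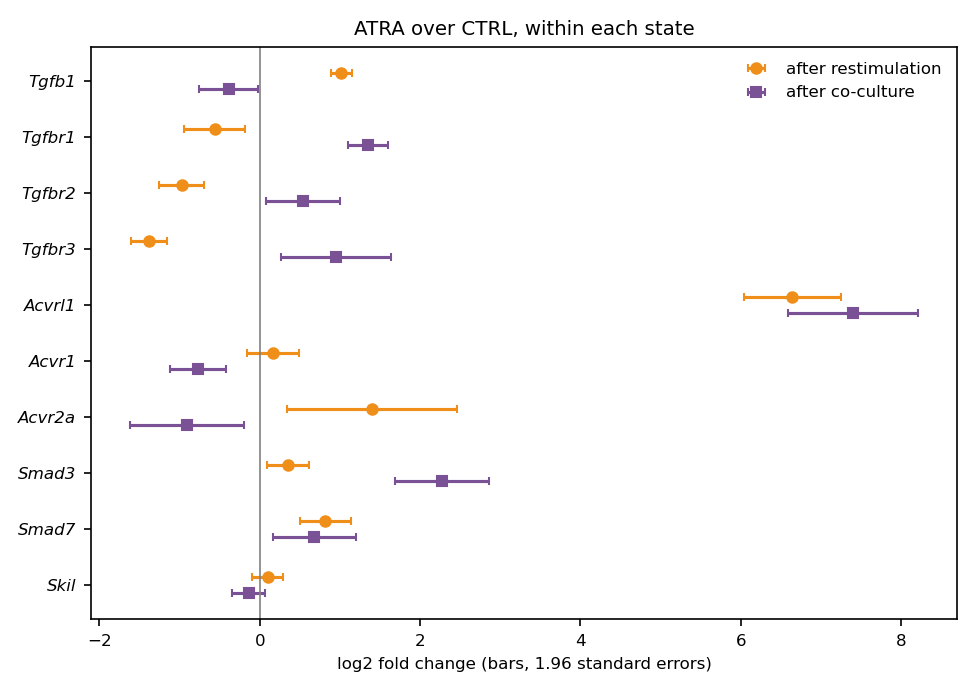
Log2 fold changes of ATRA over CTRL libraries for the 10 genes after restimulation (circles) and after co-culture (squares), with bars for 95% normal intervals. These bars can miss 0 where the edgeR test does not pass, as for Tgfbr2 after co-culture (0.08 to 1.00, unadjusted p = 0.0551). Tgfbr1, Tgfbr2 and Tgfbr3 lie below 0 after restimulation and above 0 after co-culture, Tgfb1 lies at 1.02 and -0.39, and Acvrl1 at 6.64 and 7.40.

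Promoter sequence is shown for Tgfbr1, Tgfbr2 and Smad3, the members with an ATRA effect that was lower after restimulation and with a promoter entry in the RefSeq table used here (build GRCm38.p6, 6 of the 10 members matched). Member entries were not taken from every chromosome, so a member without a match here may still have an entry. Each line gives the 250 bases before the start site, 5′ to 3′ on the gene's strand, with capitals for the SMAD motif CAGAC or its reverse complement GTCTG.
Tgfbr1, chr4:47352972-47353221, plus strand: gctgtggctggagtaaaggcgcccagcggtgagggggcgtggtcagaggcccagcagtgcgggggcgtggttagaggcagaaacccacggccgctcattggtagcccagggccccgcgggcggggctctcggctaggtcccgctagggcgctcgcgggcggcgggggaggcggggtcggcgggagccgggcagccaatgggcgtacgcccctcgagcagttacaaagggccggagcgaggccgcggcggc
Tgfbr2, chr9:116175364-116175613, minus strand: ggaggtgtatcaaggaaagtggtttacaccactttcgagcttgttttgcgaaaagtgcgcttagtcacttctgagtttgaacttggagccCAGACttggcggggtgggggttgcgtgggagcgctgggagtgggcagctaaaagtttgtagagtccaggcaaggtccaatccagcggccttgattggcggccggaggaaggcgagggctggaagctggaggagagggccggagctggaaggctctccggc
Smad3, chr9:63757995-63758244, minus strand: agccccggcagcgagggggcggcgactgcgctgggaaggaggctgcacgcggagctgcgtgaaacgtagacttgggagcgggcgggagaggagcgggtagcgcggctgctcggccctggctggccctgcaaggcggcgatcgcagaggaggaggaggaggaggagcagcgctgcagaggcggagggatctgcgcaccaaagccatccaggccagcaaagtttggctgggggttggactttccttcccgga
The retinoid receptor motif AGGTCA, searched on both strands as AGGTCA and TGACCT, was not found in any of the 6 members' windows and stood in 4607 of 32851 windows of the same length. The SMAD motif stood in 42.2% of those windows, and among these 3 windows only in that of Tgfbr2, 160 bases before the start. A second start of Tgfbr1 and the window of Acvr2a held it as well. These matches describe letters in a short window and neither a bound site nor its absence elsewhere.

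The receptors for TGF-beta itself all had a lower ATRA effect after restimulation than after co-culture. Tgfbr1 encodes ALK5, the type I receptor that phosphorylates SMAD2 and SMAD3. After restimulation it had 16.9, 19.9 and 18.6 CPM in ATRA libraries, against 25.9, 19.7 and 36.0 CPM in CTRL libraries, and the groups overlapped. It was lower in ATRA cells (log2 fold change -0.56, SE 0.19, adjusted p = 0.0268 in edgeR), a call that ended without CTRL replicate 3 (-0.32, adjusted p = 0.0794), CTRL replicate 1 (0.0538), ATRA replicate 1 (0.0973) or ATRA replicate 3 (0.0742). Over its 10 alternatives the adjusted p ran from 0.00255 to 0.0973. After co-culture Tgfbr1 had 20.9, 20.99 and 24.0 CPM in ATRA libraries, against 8.95, 8.68 and 8.19 CPM in CTRL libraries. Here every ATRA library was more than double any CTRL library (log2 fold change 1.35, SE 0.13, adjusted p = 0.00117), and the call held under all 11 alternatives. The difference of the effects was -1.92 (SE 0.26, adjusted p = 9.24e-05), called under all 17 alternatives.

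Tgfbr2 encodes the type II receptor that binds TGF-beta and activates ALK5. It fell to 31.3 ± 3.42 CPM in restimulated ATRA cells, with 35.3, 29.1 and 29.6 CPM, against 50.5, 59.2 and 74.8 CPM in CTRL libraries. These groups did not overlap (log2 fold change -0.97, SE 0.14, adjusted p = 0.000114). After co-culture it had 50.5, 50.6 and 55.9 CPM in ATRA libraries, against 50.2, 27.3 and 30.2 CPM in CTRL libraries, where CTRL replicate 1 lay just under the ATRA libraries. That difference did not pass (0.54, SE 0.23, adjusted p = 0.113), but did so without CTRL replicate 1 (0.87, adjusted p = 0.00888), in a range of 4.21e-07 to 0.301 over 11 alternatives. The effects differed by -1.52 (SE 0.30, adjusted p = 0.00124).

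Tgfbr3 encodes betaglycan, a co-receptor without kinase activity that presents TGF-beta to Tgfbr2. After restimulation its level was 23.2, 22.7 and 24.4 CPM in ATRA libraries, against 70.5, 57.3 and 55.9 CPM in CTRL libraries. The ATRA libraries were alike and all lay below CTRL (log2 fold change -1.38, SE 0.11, adjusted p = 5.71e-07). After co-culture its level was 67.6, 78.1 and 158 CPM in ATRA libraries, against 39.1, 58.9 and 59.3 CPM in CTRL libraries, with ATRA replicate 3 at more than double the other ATRA libraries. The log2 fold change of 0.95 (SE 0.35) did not pass (adjusted p = 0.0756); it passed with the replicate block (0.87, adjusted p = 0.0414), in DESeq2 (adjusted p = 0.0259) and without ATRA replicate 1 (1.17, adjusted p = 0.0429). Without ATRA replicate 3 and CTRL replicate 1, which are the highest and the lowest library, it was 0.31 (adjusted p = 0.00223), and over 11 alternatives the adjusted p ran to 0.189. The effects differed by -2.34 (SE 0.41, adjusted p = 0.000589), and by -1.68 without those libraries.

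Acvr1 encodes ALK2, a type I receptor for BMPs and activins. In restimulated cells it had 17.4, 18.7 and 18.02 CPM in ATRA libraries, against 20.1, 15.4 and 12.6 CPM in CTRL libraries, overlapping groups with a log2 fold change of 0.17 (interval -0.15 to 0.49, adjusted p = 0.396). It passed without CTRL replicate 1 (0.36, adjusted p = 0.0484), 1 of 10 alternatives, which ran to 0.949. In co-cultured cells it was lower in ATRA libraries, with 10.9, 8.83 and 8.63 CPM, against 13.7, 18.6 and 16.2 CPM in CTRL libraries (-0.77, SE 0.18, adjusted p = 0.0187). It no longer passed when the batch number entered as a replicate block (adjusted p = 0.0551), or when CTRL replicate 2 (0.0787), CTRL replicate 3 (0.0735) or ATRA replicate 2 (0.0713) was left out, and its lowest adjusted p was 9.18e-05. The effects differed by 0.94 (SE 0.26, adjusted p = 0.00924).

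Acvr2a, a type II receptor for activins, had the lowest level per length of the set after restimulation, in the deposited TPM. After restimulation it had 73, 37 and 56 counts in ATRA libraries, against 15, 6 and 39 counts in CTRL libraries, which is 2.94 ± 1.08 CPM in ATRA cells and 1.102 ± 0.894 CPM in CTRL cells (SD, n = 3 each). The groups overlapped (log2 fold change 1.40, SE 0.54, adjusted p = 0.0423). The call ended without CTRL replicate 1 (adjusted p = 0.123), CTRL replicate 2 (0.117), ATRA replicate 1 (0.159) or ATRA replicate 3 (0.0811), and without CTRL replicate 3, the highest CTRL library, the value was 2.25 (adjusted p = 0.0029). After co-culture it had 16, 11 and 22 counts in ATRA libraries, against 35, 33 and 33 counts in CTRL libraries. That lower level did not pass (-0.90, SE 0.36, adjusted p = 0.095), but did without ATRA replicate 3 (-1.22, adjusted p = 0.0381), in a range of 0.034 to 0.257. The effects differed by 2.29 (SE 0.75, adjusted p = 0.0233), a call that ended without co-cultured ATRA replicate 2 (0.0561), restimulated CTRL replicate 1 (0.054) or restimulated ATRA replicate 1 (0.0636); without restimulated CTRL replicate 3 it was 3.16 (adjusted p = 0.00284).

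Smad3 encodes the transcription factor that ALK5 and the activin receptors phosphorylate. Its level was 18.9, 18.6 and 19.7 CPM in restimulated ATRA libraries, against 15.2, 16.6 and 12.95 CPM in restimulated CTRL libraries. The groups lay close without overlap (log2 fold change 0.36, SE 0.13, adjusted p = 0.0344). It no longer passed under the replicate block (adjusted p = 0.0519), in DESeq2 (0.0734), with no filter on low counts (0.0535), and without CTRL replicate 3 (0.26, 0.0947) or ATRA replicate 1 (0.0742), 2 (0.0706) or 3 (0.0993), and held in 3 of 10 alternatives. After co-culture the same gene had 21.5, 23.1 and 36.0 CPM in ATRA libraries, against 3.75, 6.70 and 6.17 CPM in CTRL libraries. It was 4.84-fold higher in ATRA cells (log2 fold change 2.27, SE 0.30, adjusted p = 0.00334), a call that held under all 11 alternatives, with ATRA replicate 3 the highest and CTRL replicate 1 the lowest library. The effects differed by -1.92 (SE 0.33, adjusted p = 0.000534).

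Smad7 encodes the inhibitory SMAD that blocks type I receptors and brings ubiquitin ligases to them. It rose to 17.8 ± 1.20 CPM in restimulated ATRA cells, with 17.97, 16.5 and 18.9 CPM, against 8.25, 10.2 and 11.9 CPM in CTRL libraries (log2 fold change 0.82, SE 0.16, adjusted p = 0.000829). After co-culture it had 15.7, 16.7 and 27.8 CPM in ATRA libraries, against 15.3, 11.0 and 11.2 CPM in CTRL libraries. The ATRA libraries lay above CTRL by a narrow margin except for ATRA replicate 3, and the difference of 0.68 did not pass (SE 0.26, adjusted p = 0.0874). It passed without ATRA replicate 3 and CTRL replicate 1 (0.55, adjusted p = 0.000842), the only 1 of 11 alternatives in which it did, and the others ran to 0.237. The difference of the effects was 0.13, with an interval of -0.52 to 0.77 (adjusted p = 0.776).

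Skil encodes SnoN, a co-repressor of SMAD3 and SMAD4 that TGF-beta induces. Its levels were the most even of the set, with 74.8, 73.9 and 74.4 CPM in restimulated ATRA libraries and 64.3, 63.6 and 80.1 CPM in restimulated CTRL libraries. In co-cultured cells it had 54.2, 57.6 and 57.9 CPM in ATRA libraries and 69.3, 58.5 and 59.0 CPM in CTRL libraries. Its log2 fold change was 0.10 after restimulation (interval -0.09 to 0.29, adjusted p = 0.393) and -0.14 after co-culture (interval -0.35 to 0.07, adjusted p = 0.334). Without restimulated CTRL replicate 3 the value after restimulation was 0.21 (adjusted p = 0.0348), in a range to 0.781.

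Tgfb1, the ligand gene, had the highest level per length of the set after restimulation, in the deposited TPM. It rose to 241 ± 6.18 CPM in restimulated ATRA cells, with 246, 234 and 244 CPM, against 115, 127 and 115 CPM in CTRL libraries. Both groups were tight (log2 fold change 1.02, SE 0.07, adjusted p = 7.84e-08, held under all 10 alternatives). After co-culture it had 159, 153 and 100.1 CPM in ATRA libraries, against 201, 166 and 173 CPM in CTRL libraries. All ATRA libraries lay below CTRL, replicate 3 by the most, and the difference did not pass (-0.39, SE 0.19, adjusted p = 0.151). The effects differed by 1.41 (SE 0.20, adjusted p = 0.000123), called under all 17 alternatives.

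Per transcript length, Acvrl1 was among the main receptor transcripts of restimulated ATRA cells. The deposited TPM values, given for restimulated libraries, correct for length and allow levels of genes to be compared. On that scale Acvrl1 stood at 85.3 ± 19.6 TPM in ATRA cells, second of the 10 members after Tgfb1 at 210 ± 14.2 TPM. In restimulated CTRL cells Acvrl1 stood at 1.17 ± 0.861 TPM, rank 9 of 10, where Tgfb1 had 118 ± 11.2 TPM. Tgfbr1 was at 13.7 ± 1.28 TPM in ATRA cells and 20.99 ± 6.10 TPM in CTRL cells. Tgfbr2 was at 10.4 ± 1.03 TPM in ATRA cells and 19.8 ± 4.18 TPM in CTRL cells, and Tgfbr3 at 12.0 ± 0.978 TPM in ATRA cells and 29.5 ± 4.84 TPM in CTRL cells. The lowest ATRA library of Acvrl1, at 65.4 TPM, lay above the highest library of any other receptor gene plotted, 38.7 TPM for Bmpr1a, a BMP type I receptor, in CTRL cells.

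Partner receptors that ALK1 is known to use in endothelial cells were low beside Acvrl1 in TPM of restimulated ATRA cells. After co-culture, for which no TPM are given, Bmpr2 had 42.9 CPM in ATRA and 34.4 CPM in CTRL cells, and Eng 12.5 CPM in ATRA and 3.41 CPM in CTRL cells. The type II receptor gene Bmpr2 had 4.88 ± 0.289 TPM in restimulated ATRA cells and 5.90 ± 0.848 TPM in restimulated CTRL cells, Eng had 2.39 ± 0.418 TPM in ATRA cells and 1.89 ± 1.51 TPM in CTRL cells, and Acvr2a had 1.09 ± 0.418 TPM in ATRA cells and 0.417 ± 0.321 TPM in CTRL cells. Among SMAD genes, Smad5 had 39.7 ± 5.00 TPM in ATRA cells and 18.03 ± 0.366 TPM in CTRL cells, Smad1 had 4.71 ± 1.06 TPM in ATRA cells and 8.61 ± 2.50 TPM in CTRL cells, and Smad9 was listed at 0 in all 6 libraries. Smad2 had 46.2 ± 2.87 TPM in ATRA cells and 54.1 ± 2.41 TPM in CTRL cells, and Smad4 had 56.3 ± 5.24 TPM in ATRA cells and 44.9 ± 2.21 TPM in CTRL cells. These are levels of RNA and do not show receptor complexes.

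**Figure D3:**
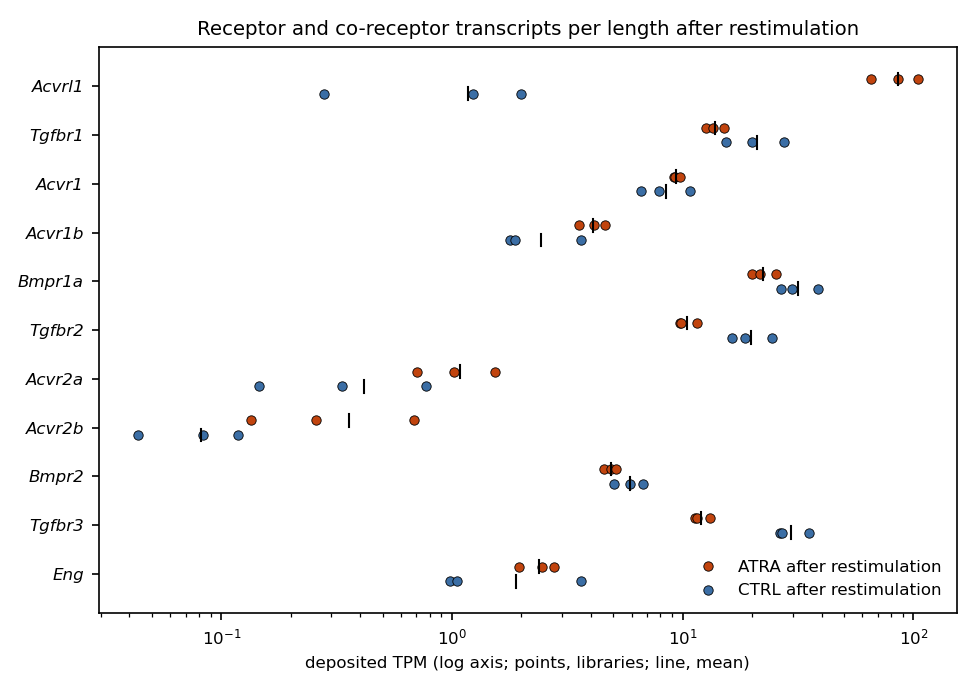
Deposited TPM on a log axis of 11 receptor and co-receptor genes in each restimulated library (points) with the group mean (line), ATRA above CTRL. Acvrl1 averages 85.3 TPM in ATRA and 1.17 TPM in CTRL libraries, while Tgfbr1, Tgfbr2, Tgfbr3 and Bmpr1a have lower means in ATRA libraries.

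Set across the states, no other member had its 4 group means in the order of Acvrl1. On a scale common to all 12 libraries, Acvrl1 was highest in restimulated ATRA cells (68.3 ± 3.45 CPM), followed by co-cultured ATRA cells (21.3 ± 2.00 CPM), restimulated CTRL cells (0.667 ± 0.546 CPM) and co-cultured CTRL cells (0.121 ± 0.106 CPM), with no overlap between neighbours. For Tgfbr1 the order was restimulated CTRL (27.3 ± 8.20 CPM), co-cultured ATRA (23.6 ± 2.30 CPM), restimulated ATRA (18.4 CPM, 16.9 to 19.9) and co-cultured CTRL cells (9.23 ± 0.405 CPM), and the first 2 of these overlapped. Smad3 ran from co-cultured ATRA (28.8 ± 9.06 CPM) over restimulated ATRA (19.0 ± 0.529 CPM) and restimulated CTRL (14.9 ± 1.85 CPM) to co-cultured CTRL cells (5.94 ± 1.69 CPM), without overlap between neighbours. For Tgfb1 it was restimulated ATRA (240 ± 5.85 CPM), co-cultured CTRL (193 ± 19.4 CPM), co-cultured ATRA (147 ± 32.8 CPM) and restimulated CTRL cells (119 ± 7.08 CPM), where only the last 2 overlapped. Tgfbr2 neighbours overlapped at every step, and so did those of Skil.

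Restimulated and co-cultured libraries also differ in batch set and in count table, which cannot be told apart from restimulation. Within ATRA cells 7 of the other 9 members differed between restimulated and co-cultured libraries, 4 higher and 3 lower, against 61.3% of all genes (29.8% higher, 31.5% lower). Libraries were separated for 8 of the 9, 4 higher and 4 lower, against 67.1% of all genes (33.6% higher, 33.5% lower). Acvr2a (2.00), Acvr1 (0.83), Tgfb1 (0.71) and Skil (0.29) were higher after restimulation. For Acvrl1 the fitted log2 fold change was 1.68 (SE 0.27), or 3.21-fold, and no p is given because its co-culture counts chose the gene. Tgfbr3 fell to 23.4 ± 0.863 CPM in restimulated ATRA cells, against 109 ± 55.2 CPM in co-cultured ATRA cells (-2.22, SE 0.30, adjusted p = 5.63e-05), and Tgfbr2 (-0.84) and Smad3 (-0.60) were lower as well. Tgfbr1 (-0.36) and Smad7 (-0.28) did not pass (adjusted p = 0.111 and 0.313). The Smad3 call (adjusted p = 0.0402) ended without co-cultured ATRA replicate 3 (-0.31, 0.162) and without restimulated ATRA replicate 1 (0.0927), 2 (0.0979) or 3 (0.0773) or CTRL replicate 1 (0.0535) or 2 (0.0508). The Skil call (adjusted p = 0.0306) ended without co-cultured ATRA replicate 1 (0.0916) or 2 (0.0686) or restimulated ATRA replicate 1 (0.0722), 2 (0.0664) or 3 (0.0717), and Tgfbr1 passed without restimulated CTRL replicate 3 (0.0419).

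Within CTRL cells 4 of the other 9 differed, 3 higher and 1 lower after restimulation, against 32.5% of all genes (15.9% higher, 16.6% lower). Libraries were separated for 3 of the 9, 2 higher and 1 lower, against 51.5% of all genes (26.8% higher, 24.7% lower). Tgfbr1 was 2.96-fold higher (log2 fold change 1.56, SE 0.19, adjusted p = 7.09e-05) and Smad3 2.51-fold higher (1.33, SE 0.24, adjusted p = 0.00141). Tgfbr2 was higher by 0.68 with overlapping groups (adjusted p = 0.0271), a call that ended without co-cultured CTRL replicate 2 (0.108) or 3 (0.109) or restimulated CTRL replicate 2 (0.0548) or 3 (0.113). Tgfb1 was lower (-0.70, SE 0.14, adjusted p = 0.00283). For Acvrl1, not tested here for the same reason, the fitted value was 2.43 (SE 0.62), on 36 counts in restimulated and 9 counts in co-cultured CTRL libraries; without restimulated CTRL replicate 3 it was 1.49 and without co-cultured CTRL replicate 2 it was 3.35.

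**Figure D4:**
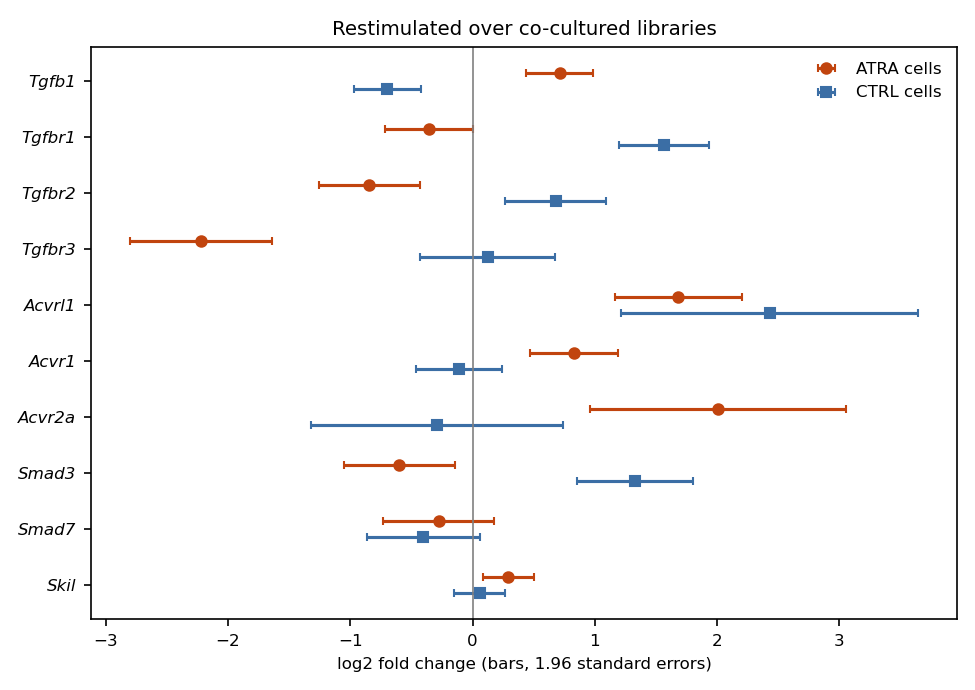
Log2 fold changes of restimulated over co-cultured libraries for the 10 genes in ATRA cells (circles) and CTRL cells (squares), with bars for 95% normal intervals. Tgfb1 lies at 0.71 in ATRA and -0.70 in CTRL cells, Tgfbr1 at -0.36 and 1.56, and Smad3 at -0.60 and 1.33.

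Of 23 other ligand genes of the family, 5 rose and 0 fell in ATRA cells after restimulation, among 7 that passed the filter on low counts; 31.8% of all genes were called higher and 30.8% lower. Of those 7, 4 (Tgfb2, Tgfb3, Gdf9 and Bmp2) reached the filter's level in ATRA libraries alone and so could be tested only by differing. The count, and the values of these 4, are given as a description without a p. The other 3 were Inhba, which rose, and Inha and Gdf11, which did not pass the test. Inhba, which encodes the activin A subunit, had 322, 316 and 313 CPM in ATRA libraries, against 6.23, 4.52 and 3.01 CPM in CTRL libraries (6.11, SE 0.19, adjusted p = 1.58e-08). Tgfb2 had 165, 170 and 149 counts in ATRA libraries, against 1, 2 and 2 counts in CTRL libraries, a ratio of 89.8 with a counting interval of 38.2 to 278. Bmp2, a ligand of Acvr1 and Bmpr1a, had 60 counts in ATRA libraries and 1 count in CTRL libraries (ratio 55.7, counting interval 9.62 to 2235).

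After co-culture 5 of the listed ligands were tested, with 1 higher and 1 lower, against 18.1% of all genes called higher and 15.5% lower. The higher one, Tgfb3, reached the filter's level in ATRA libraries alone, so its values are given as a description without a p. Inhba was lower there, with 5.89, 5.43 and 2.72 CPM in ATRA libraries, against 24.0, 37.0 and 37.0 CPM in CTRL libraries (-2.80, SE 0.33, adjusted p = 0.00237), so its effect had opposite signs in the states (difference 8.91, SE 0.43, adjusted p = 6.02e-08). Tgfb3, the third TGF-beta ligand, had 279, 269 and 486 counts in ATRA libraries, against 5, 2 and 0 counts in CTRL libraries (ratio 162, counting interval 78.3 to 404). Its fitted value was 7.27 (SE 0.67), and 8.42 without CTRL replicate 1. Without co-cultured ATRA replicate 3 and CTRL replicate 1, 2 ligands were higher and 1 lower. In that setting 4015 of all genes were called higher and 3965 lower, in place of 2188 and 1883. Gdf2 and Bmp10, which encode the ALK1 ligands, were on the list and did not pass the filter in either state.

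**Figure D5:**
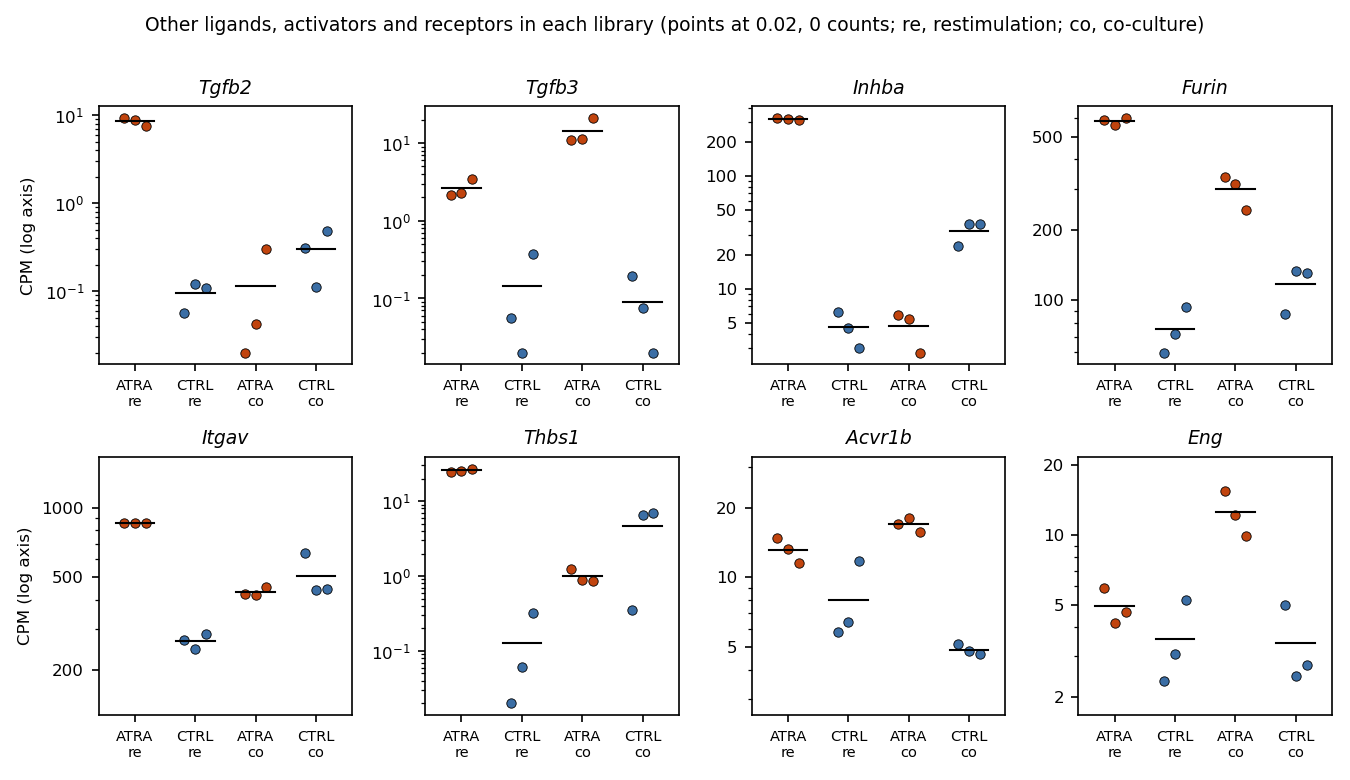
CPM on a log axis for 8 further genes of the pathway in each library (points) with the group mean (line); re marks restimulated and co marks co-cultured libraries, and points at 0.02 stand for 0 counts. Inhba averages 317 CPM in restimulated ATRA and 4.59 CPM in restimulated CTRL libraries, but 4.68 CPM in co-cultured ATRA and 32.7 CPM in co-cultured CTRL libraries.

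The release of TGF-beta from its latent complex depends on furin, which cuts the precursor, and on integrins and matrix proteins. Of 18 genes of latency, activation and antagonism, 8 were tested after restimulation, 5 rose and 2 fell, against 31.8% of all genes called higher and 30.8% lower. Thbs1 and Itgb8 reached the filter's level in ATRA libraries alone, so their part in the count is a description and no p is given for Thbs1. Furin had 588, 560 and 600 CPM in restimulated ATRA libraries, against 59.8, 72.0 and 94.0 CPM in CTRL libraries (2.95, SE 0.16, adjusted p = 1.31e-06). Itgav, the alpha v integrin chain of the TGF-beta-activating integrins, had 856, 859 and 862 CPM in ATRA libraries, against 268, 245 and 285 CPM in CTRL libraries (1.69, SE 0.07, adjusted p = 1.07e-09). Thbs1, thrombospondin, an activator of latent TGF-beta, had 438, 485 and 541 counts in ATRA libraries, against 0, 1 and 6 counts in CTRL libraries, a ratio of 194 with a counting interval of 93.9 to 483. All ATRA libraries lay above all CTRL libraries for these genes.

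After co-culture 8 genes of that list were tested, 4 rose and 1 fell, against 18.1% and 15.5% of all genes. Without ATRA replicate 3 and CTRL replicate 1, 5 rose and 2 fell. In that setting 4015 of all genes were called higher and 3965 lower, in place of 2188 and 1883. Fstl3, 1 of the 4, reached the filter's level in ATRA libraries alone, so its values are given as a description without a p. Furin was again higher, at 298 ± 47.7 CPM in ATRA cells and 117 ± 26.0 CPM in CTRL cells (1.35, SE 0.20, adjusted p = 0.00498). Fstl3, a follistatin-like antagonist of activin, had 21, 24 and 68 counts in ATRA libraries, against 5, 7 and 4 counts in CTRL libraries (2.95, SE 0.64). The value was 2.93 without CTRL replicate 1, 3.16 without CTRL replicate 2, 2.76 without CTRL replicate 3 and 2.15 without ATRA replicate 3. Ltbp3, a latent TGF-beta binding protein, was lower, at 17.0 ± 2.33 CPM in ATRA cells and 33.2 ± 6.03 CPM in CTRL cells (-0.97, SE 0.18, adjusted p = 0.00919).

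Of 13 other receptors and co-receptors, 6 were tested after restimulation, and 2 rose and 2 fell (median 0.24), near the 31.8% and 30.8% of all genes. After co-culture 8 were tested, and 4 rose and 0 fell (median 0.89), against 18.1% and 15.5% of all genes. Without ATRA replicate 3 and CTRL replicate 1, 6 rose and 0 fell. In that setting 4015 of all genes were called higher and 3965 lower, in place of 2188 and 1883. Acvr1b, the activin type I receptor ALK4, was at 13.2 ± 1.62 CPM in restimulated ATRA cells and 8.01 ± 3.27 CPM in restimulated CTRL cells (0.72, SE 0.25, adjusted p = 0.0285, overlapping groups), and at 16.9 ± 1.19 CPM in co-cultured ATRA cells and 4.88 ± 0.251 CPM in co-cultured CTRL cells (1.79, SE 0.14, adjusted p = 0.000743). The first of these calls ended without CTRL replicate 1 (0.0883) or 2 (0.109) or ATRA replicate 1 (0.0978) or 2 (0.0674). Bmpr1a was lower in ATRA cells after restimulation, at 36.6 ± 4.89 CPM against 52.8 ± 10.2 CPM in CTRL cells (-0.53, SE 0.15, adjusted p = 0.00791). After co-culture it was higher, at 52.6 ± 9.28 CPM in ATRA cells against 32.4 ± 3.42 CPM in CTRL cells (0.70, SE 0.16, adjusted p = 0.0181), a call that ended without ATRA replicate 2 (0.0534) or CTRL replicate 1 (0.0518), 2 (0.0524) or 3 (0.0703). Eng had 12.5 ± 2.75 CPM in co-cultured ATRA cells and 3.41 ± 1.39 CPM in co-cultured CTRL cells (1.88, SE 0.33, adjusted p = 0.00797). Cd109, a TGF-beta co-receptor, rose by 0.54 after restimulation (SE 0.19, adjusted p = 0.0289), a call that ended without CTRL replicate 2 (0.107) or 3 (0.0509) or ATRA replicate 2 (0.0631) or 3 (0.0995).

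Of 6 other SMAD genes 4 were tested in each state. After restimulation 2 were higher and 2 lower (median 0.04), where 62.6% of all genes were called. After co-culture 1 was higher (median 0.26), where 33.6% of all genes were called. Without ATRA replicate 3 and CTRL replicate 1, 2 were higher after co-culture. In that setting 4015 of all genes were called higher and 3965 lower, in place of 2188 and 1883. Smad5, the BMP-responsive SMAD, was at 44.9 ± 1.39 CPM in restimulated ATRA cells and 20.3 ± 2.63 CPM in restimulated CTRL cells (1.15, SE 0.11, adjusted p = 3.16e-06). Its close relative Smad1 was lower, at 6.10 ± 0.454 CPM in ATRA cells and 9.78 ± 2.698 CPM in CTRL cells (-0.68, SE 0.22, adjusted p = 0.0169), a call that ended without CTRL replicate 3 (0.0705) or ATRA replicate 3 (0.0621). Smad4, the common partner, rose by 0.29 after restimulation (adjusted p = 0.00911; 0.0523 without ATRA replicate 1) and by 0.49 after co-culture (adjusted p = 0.0324). The second of these ended with the replicate block (0.0624) and without ATRA replicate 2 (0.0566) or CTRL replicate 1 (0.0816), 2 (0.0864) or 3 (0.111).

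All 21 intracellular regulators were tested in both states. After restimulation 6 were higher and 5 lower (median 0.09), so that 52.4% of them were called, a smaller share than the 62.6% of all genes. After co-culture 7 were higher and 3 lower (median -0.07), or 47.6% called, against 33.6% of all genes. Without ATRA replicate 3 and CTRL replicate 1, 8 were higher and 6 lower. In that setting 4015 of all genes were called higher and 3965 lower, in place of 2188 and 1883. The ubiquitin ligase gene Smurf1, whose product Smad7 brings to the receptors, had 58.5 ± 2.36 CPM in restimulated ATRA cells and 23.04 ± 3.31 CPM in restimulated CTRL cells (1.34, SE 0.12, adjusted p = 9.34e-07). Rnf111, a ligase that degrades Smad7 and SnoN, rose by 0.64 (adjusted p = 2.22e-05), and Fkbp1a, whose product holds type I receptors inactive, fell by 0.56 on the log2 scale (adjusted p = 8.57e-05). After co-culture the ligase genes Nedd4l (1.75, adjusted p = 0.00206) and Smurf2 (1.14, adjusted p = 0.0114; 0.0551 without CTRL replicate 3) rose. Ldlrad4, a membrane inhibitor of SMAD2 and SMAD3 that TGF-beta induces, was higher after co-culture (2.65, SE 0.36, adjusted p = 0.00377) and lower after restimulation (-1.90, SE 0.31, adjusted p = 0.000192), at 1.62 ± 0.108 CPM in restimulated ATRA and 6.04 ± 2.21 CPM in restimulated CTRL cells.

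Genes that TGF-beta or SMAD3 is known to induce moved in both directions. Of 10 tested in each state, 4 rose and 2 fell after restimulation (median 0.44), about the 62.6% of all genes called there. After co-culture 5 rose and 2 fell (median 0.63), against 18.1% and 15.5% of all genes. The counts were the same without ATRA replicate 3 and CTRL replicate 1. In that setting 4015 of all genes were called higher and 3965 lower, in place of 2188 and 1883. Rgs16, a regulator of G protein signals, was at 298 ± 20.6 CPM in restimulated ATRA cells and 66.9 ± 7.89 CPM in restimulated CTRL cells (2.16, SE 0.09, adjusted p = 2.16e-09), but at 44.1 ± 28.4 CPM in co-cultured ATRA cells and 297 ± 60.6 CPM in co-cultured CTRL cells. Pmepa1, another membrane inhibitor of the pathway, rose by 0.89 after restimulation (adjusted p = 0.000474). Pmepa1 and Ldlrad4 are also counted among the intracellular regulators above, so the 2 lists share genes. Itga1, the alpha1 integrin chain of resident T cells, was higher after co-culture, at 8.79 ± 1.103 CPM in ATRA cells and 2.35 ± 0.898 CPM in CTRL cells (1.90, SE 0.30, adjusted p = 0.00603).

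Of 10 genes induced by BMP or ALK1 signals, 2 were tested after restimulation, with 1 higher and 0 lower, where 31.8% of all genes were higher and 30.8% lower. After co-culture 3 were tested, with 2 higher and 0 lower, against 18.1% and 15.5% of all genes, and 1 of the 2, Hey1, reached the filter's level in ATRA libraries alone. Without co-cultured ATRA replicate 3 and CTRL replicate 1, 4 were tested and 4 were higher after co-culture. In that setting 4015 of all genes were called higher and 3965 lower, in place of 2188 and 1883. Id2, an inhibitor of DNA binding used by effector T cells, was at 204 ± 8.05 CPM in restimulated ATRA cells and 98.9 ± 19.5 CPM in restimulated CTRL cells (1.04, SE 0.12, adjusted p = 4.24e-05). After co-culture it was at 194 ± 65.2 CPM in ATRA cells and 79.2 ± 7.92 CPM in CTRL cells (1.29, SE 0.23, adjusted p = 0.00926). Hey1, a repressor that Notch and ALK1 induce in endothelial cells, is given as a description without a p. Hey1 had 76, 106 and 291 counts in co-cultured ATRA libraries, against 2, 1 and 1 counts in CTRL libraries, a ratio of 129.6 with a counting interval of 50.3 to 478. Its fitted value of 6.91 was 6.07 without ATRA replicate 3. Smad6 and Smad9 of this list did not pass the filter. Id1 had 23 counts in co-cultured ATRA, 9 in co-cultured CTRL, 15 in restimulated ATRA and 2 in restimulated CTRL libraries. For Id3 these sums were 83, 11, 18 and 19 counts. Hey2, Atoh8 and Tmem100 were not listed after co-culture and had at most 6 counts in a group after restimulation.

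Predicted and clone-named genes were left out of the search for patterns like that of Acvrl1. Among the 11830 genes kept, the most alike over the 12 libraries were Tmem106a (Pearson r = 0.987 of log2 CPM), Nlrp3 (0.975), Gpr55 (0.973), Ccr9 (0.972) and Mgrn1 (0.971). These values describe libraries that share group and batch set. Tmem106a had 29.1 ± 1.55 CPM in restimulated ATRA cells, 7.66 ± 2.09 CPM in restimulated CTRL cells, 21.9 ± 0.459 CPM in co-cultured ATRA cells and 5.199 ± 0.370 CPM in co-cultured CTRL cells. Ccr9, the receptor for gut-homing chemokine, had 103 ± 1.95 CPM in restimulated and 41.1 ± 1.18 CPM in co-cultured ATRA cells and 0 counts in all 6 CTRL libraries. Nlrp3, an inflammasome sensor, had 20.2 ± 2.58 CPM in restimulated ATRA cells, against 1.77 ± 0.693 CPM in restimulated CTRL cells, and 13.2 ± 4.95 CPM in co-cultured ATRA cells, against 1.02 ± 0.384 CPM in co-cultured CTRL cells. Among the members themselves Smad3 (r = 0.783) and Smad7 (0.682) were most like Acvrl1, and Tgfbr3 (-0.287), Acvr1 (-0.282) and Tgfbr2 (-0.205) had the lowest values.

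Markers of other cell types, among them GL261 cells, which a live CD45.2+ sort would remove, were low beside the T cell sums, and their part in the members' differences was not tested. After restimulation, the summed level in ATRA libraries against CTRL libraries was 85.1 to 91.0 CPM against 91.2 to 102 CPM for 17 GL261 or mesenchymal genes and 23.1 to 24.4 CPM against 11.7 to 16.99 CPM for 9 monocyte and macrophage genes. It was 71.6 to 71.7 CPM in ATRA against 28.6 to 60.5 CPM in CTRL libraries for 7 dendritic cell genes, and 13.7 to 14.1 CPM in ATRA against 4.15 to 5.27 CPM in CTRL libraries for 6 B cell genes. CD4 T cell genes, 5 in number, summed to 24.2 to 27.2 CPM in ATRA and 19.5 to 26.0 CPM in CTRL libraries, and 5 NK cell genes to 3.86 to 8.89 CPM in ATRA and 17.5 to 20.9 CPM in CTRL libraries. After co-culture, the GL261 or mesenchymal sum was 82.1 to 91.9 CPM in ATRA and 133.5 to 163 CPM in CTRL libraries, and that of monocytes and macrophages 19.9 to 24.2 CPM in ATRA and 12.3 to 13.4 CPM in CTRL libraries. Dendritic cell genes stood at 45.5 to 50.5 CPM in ATRA and 30.2 to 40.4 CPM in CTRL libraries, and B cell genes at 4.87 to 10.4 CPM in ATRA and 7.19 to 16.6 CPM in CTRL libraries. CD4 T cell genes stood at 74.5 to 77.8 CPM in ATRA and 42.8 to 48.2 CPM in CTRL libraries, and NK cell genes at 1.81 to 4.25 CPM in ATRA and 46.6 to 97.6 CPM in CTRL libraries. Platelet genes summed to 6.07 CPM or less in every library. Gfap, Olig2, Csf1r and C1qa were at 0 or not listed in all 12. Other GL261 or mesenchymal and myeloid genes were present and differed in both directions. After co-culture, Axl averaged 46.5 CPM in ATRA and 106 CPM in CTRL cells. Igfbp7 averaged 0.504 CPM in co-cultured ATRA and 29.7 CPM in co-cultured CTRL cells. Higher in co-cultured ATRA cells were Loxl2, at 31.97 CPM against 3.63 CPM in CTRL cells, and Cd68, at 20.4 CPM against 11.4 CPM.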

How the data were processed

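Total RNA (TruSeq Stranded Total RNA Gold) was sequenced from 12 libraries, 3 in each of 4 groups. The deposited tables hold whole-number counts per gene symbol, named counts by the authors and taken as not normalised from their values, 1 table for each state, and, from the authors, TPM values of the restimulated libraries, which are scaled by gene length and sum to the same total in each library. Per the submitters' processing notes, the build was mm39 and the tools included Salmon 1.10.3, STAR 2.7.11b, DESeq2 1.42.1 and cutadapt 5.0; their roles and the strand setting of the counting were not given in the sources used here, so reads of overlapping antisense genes cannot be told apart. The co-culture table holds 13948 symbols, none with under 10 counts in sum, and that of restimulated cells holds 35588 rows, of which 32 repeats were dropped. TPM columns could not be tied to single libraries and were used as replicates of their group.

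From the counts, edgeR 4.0.16 (R 4.3.3, limma 3.58.1) was run with TMM scaling, its filter on low counts by group and a robust quasi-likelihood test, with Benjamini-Hochberg adjustment over all genes tested and a threshold of 0.05. ATRA effects were fitted within each table; the difference of the effects and the restimulation contrasts used the 12 libraries and the symbols common to both tables. The scripts were tested on simulated counts. DESeq2 1.42.0, RLE scaling, no filter, the replicate block, each library left out, and co-cultured ATRA replicate 3 and CTRL replicate 1 left out together were the alternatives. CPM are counts per TMM-scaled library size, within the table of a state or, where states are set side by side, over all 12 libraries.

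The labels tie same-numbered ATRA and CTRL libraries of a state to a batch, and their deviations from the group means correlated at 0.105, -0.0505 and 0.0621 after co-culture and at -0.0306, -0.109 and 0.0614 after restimulation. Depth limits low genes to the counts printed, and intervals of counts cover counting error only. Normal intervals are 1.96 SE each way, without allowance for the few degrees of freedom of the test.

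The members and gene lists were chosen with earlier results of these data known. Named list genes are up to 3 called genes per list and state with the lowest p; 1 of them is not reported here. The 5 genes most like Acvrl1 were those with the highest Pearson correlation of log2 CPM, with predicted and clone-named genes left out.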

Additional observations from a re-analysis of the deposited data

Results flagged for a closer look

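The ATRA effect (log2 ATRA over CTRL) differed between the restimulated and the co-cultured state, by the interaction term of the edgeR fit, in these genes, and each value is the effect after restimulation minus that after co-culture. Among members it was -1.92 for Tgfbr1, -1.52 for Tgfbr2, -2.34 for Tgfbr3, -1.92 for Smad3, 0.94 for Acvr1, 2.29 for Acvr2a and 1.41 for Tgfb1. Among ligands and their activation it was 8.91 for Inhba, 7.79 for Tgfb2, 1.61 for Furin, 0.87 for Ltbp3, 1.91 for Itgav and 9.76 for Thbs1. Thbs1 had 73 counts in co-cultured ATRA libraries and 378 counts in co-cultured CTRL libraries, of which CTRL replicate 1 held 9, and without restimulated CTRL replicate 3 its difference was 11.73. The Tgfb2 value ran from 7.19 to 9.98 over the alternatives. After restimulation Tgfb2 and Thbs1 reached the filter's level in ATRA libraries alone, so their differences are given as a description.

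Among receptors and SMADs the difference was -1.08 for Acvr1b, -1.41 for Eng, -1.23 for Bmpr1a and 0.83 for Smad5. Among regulators and induced genes it was -1.57 for Nedd4l, -4.56 for Ldlrad4, -0.72 for Smurf2, -4.78 for Hey1 and 4.91 for Rgs16. After co-culture Hey1 reached the filter's level in ATRA libraries alone, so its difference is given as a description. The adjusted p of Eng lay above 0.05 in 6 of 17 alternatives (up to 0.0826). That of Smurf2 did so in 9, the replicate block included (0.073, and up to 0.101). The Hey1 value ran from -5.37 to -3.92 over the alternatives. Across all genes, 49.2% differed in this way. State, batch set and count table cannot be told apart in these differences.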

How the results depend on the processing

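For the members, 50 of 50 values kept direction and, where tested, side of the threshold under RLE scaling, 48 of 50 in DESeq2, 49 of 50 with no filter and 27 of 30 with the replicate block. RLE scaling moved the median of all genes by under 0.01 in each comparison. With the replicate block 2892 genes were called after co-culture, 7751 after restimulation and 5403 for the difference, and it changed no other call of a member than those given above. The 4071 genes called after co-culture ran from 1613 to 5617 with 1 library left out (1772 without CTRL replicate 2, 1613 without CTRL replicate 3, 2226 without ATRA replicate 2) and were 7980 without CTRL replicate 1 and ATRA replicate 3. Members called ran from 2 to 4 after co-culture (7 without both of those libraries), from 5 to 7 after restimulation, from 5 to 8 for restimulation in ATRA cells, and from 3 to 4 for restimulation in CTRL cells, the last 2 without Acvrl1. Beside these, all genes called ran from 7247 to 8185 after restimulation. They ran from 6742 to 8217 for restimulation in ATRA cells and from 2817 to 5641 for that in CTRL cells.

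No value that changed sign had passed the test with all libraries (that of Acvrl1 was not tested), and the cause of the changes was not tested. For the difference of the effects, leaving out 1 library gave Acvrl1 values from -1.67 to 0.19 and Smad7 values from -0.041 to 0.45. For restimulation in ATRA cells Smad7 ran from -0.44 to 0.048, and was 0.045 without both libraries. For restimulation in CTRL cells Tgfbr3 ran from -0.051 to 0.22 (-0.051 without both), Acvr1 from -0.31 to 0.036, Acvr2a from -1.15 to 0.11 and Skil from -0.060 to 0.14. Depth limits Acvrl1 in CTRL cells (9 counts after co-culture and 36 after restimulation) and Acvr2a.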
